A study of Mus musculus with 6 samples.

Results

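The genes described here are regulators of apoptosis from the BCL2 family together with a pair of death receptors, chosen by their symbols in the deposited gene table. The list named 10 genes, and 9 of them were among the 16880 genes listed: the anti-apoptotic Bcl2, Bcl2l1 and Mcl1, the BH3-only genes Bcl2l11, Bbc3 and Bid, the effector Bak1, and the death receptors Tnfrsf10b and Fas. Pmaip1 was not analysed here. All 9 passed the filter on low counts and were among the 11983 genes tested.

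Apoptosis can start at mitochondria or at the cell surface. At mitochondria, BH3-only proteins bind and neutralize anti-apoptotic proteins or activate the effectors Bak and Bax, which then open the outer membrane and release cytochrome c. At the surface, ligand-bound death receptors recruit FADD and caspase-8, and caspase-8 can cleave Bid, which carries the signal to mitochondria. In cartilage, loss of chondrocytes by apoptosis is a known feature of osteoarthritis.

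RNA was sequenced from ATDC5, a mouse chondrogenic cell line, in 3 libraries per group and 6 in all. All cells received 10 ng/mL IL-1β, a cytokine used to provoke an inflammatory, dedifferentiated state. The IL group received IL-1β alone, and the ILN group also received 10 μmol/L NP-G2-044, a small molecule inhibitor of the actin-bundling protein FSCN1, for 24 h according to the methods. The treatment field of the ILN samples reads NP-G2-047 while their titles and the paper give NP-G2-044, the paper speaks of chondrocytes where the labels name ATDC5, and a DMSO group in the methods was not analysed here. Every comparison below therefore sets ILN against IL, and no value shows what IL-1β itself did. The methods call the 3 libraries of a group biological replicates, without saying how the cultures were separated, so the p-values measure the spread between these libraries.

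Library totals ranged from 16615824 to 16878164 reads in IL and from 17529844 to 17735860 in ILN. Chondrocyte markers were weak: 9 of 12 were listed, 6 of these stayed under 1 TPM (transcript level scaled to library and length) in every library, and Col2a1, which encodes the main collagen of cartilage, averaged 0.217 TPM in IL and 0.04 TPM in ILN. Of 5 chondrocyte markers tested, 1 was higher and 3 were lower in ILN. Sox9, the chondrocyte lineage factor, rose from 6.44 to 11.4 TPM, while its partner Sox5 fell from 10.3 to 2.27 TPM and the cartilage collagen gene Col11a2 from 5.01 to 3.43 TPM. Among macrophage and leukocyte markers 7 of 8 were listed, their summed level ranged from 23.99 to 24.8 TPM in IL and from 128.9 to 140.2 TPM in ILN, and 5 stayed under 1 TPM in every library. The sum consisted mainly of Cd68, a lysosomal protein, at 12.4 TPM in IL and 129.9 TPM in ILN, and of Cd14, a co-receptor for bacterial lipopolysaccharide, at 11.4 TPM in IL and 4.89 TPM in ILN. The defining leukocyte gene Ptprc was at 0 in every library. Endothelial markers (4 of 6 listed, all under 1 TPM) summed to at most 0.28 TPM in IL and 0.55 TPM in ILN, and epithelial markers (6 of 6 listed) to at most 1.35 TPM in IL and 0.08 TPM in ILN.

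The promoters of the genes that moved most are shown to give the sequence just before their starts. They are the 250 bases before a RefSeq start on GRCm38.p6 (mm10), 5′ to 3′ on the strand of the gene, for the 3 genes of the group whose level changed more than the cutoff of 1 on the log2 scale. Capitals mark a FOXO core (GTAAACA, either strand) in Bcl2l11 and Bbc3 and an AP-1 motif (TGACTCA or TGAGTCA) in Fas. Bcl2l11 had 2 windows and Bbc3 had 3, and for each only the window that held the FOXO core is shown. Their other windows did not hold it. In the order shown, GC content was 72.0%, 72.4% and 56.4%, beside a median of 52.4% over all promoter windows.
Bcl2l11, first start, chr2:128125788-128126037, plus strand: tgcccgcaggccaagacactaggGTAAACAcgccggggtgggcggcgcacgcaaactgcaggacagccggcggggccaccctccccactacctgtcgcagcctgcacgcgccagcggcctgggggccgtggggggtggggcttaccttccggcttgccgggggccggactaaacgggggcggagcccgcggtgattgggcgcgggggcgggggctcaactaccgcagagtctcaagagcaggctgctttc
Bbc3, second start, chr7:16310011-16310260, plus strand: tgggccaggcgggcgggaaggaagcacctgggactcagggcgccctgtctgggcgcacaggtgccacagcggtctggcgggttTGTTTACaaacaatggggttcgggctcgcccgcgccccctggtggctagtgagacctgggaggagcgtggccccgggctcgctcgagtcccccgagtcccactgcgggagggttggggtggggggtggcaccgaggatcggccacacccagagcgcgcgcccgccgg
Fas, chr19:34290409-34290658, plus strand: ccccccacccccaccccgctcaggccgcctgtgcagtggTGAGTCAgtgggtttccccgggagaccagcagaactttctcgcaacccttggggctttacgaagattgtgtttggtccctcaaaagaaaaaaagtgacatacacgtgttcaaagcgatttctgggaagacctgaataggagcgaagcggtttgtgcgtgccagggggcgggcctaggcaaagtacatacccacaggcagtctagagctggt

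The FOXO core lay 227 to 221 bases before the first start of Bcl2l11 and, on the opposite strand, 167 to 161 bases before the second start of Bbc3. It was held by 2 of the 13 windows of the group and by 3.17% of all 32851 promoter windows of this length. The AP-1 motif lay 211 to 205 bases before the start of Fas, and 4.46% of all windows held it. In all, 8 of the 9 genes had an entry in the RefSeq promoter set used, with 13 windows between them. Tnfrsf10b had none, so its promoter was not searched. None of these windows held the ATF4-CHOP composite TGATGNAA (3.45% of all windows), the cAMP response element TGACGTCA (1.55%) or a partial p53 site (7.13%). An NF-κB motif was found in the second window of Bcl2l1 and, as overlapping matches, in the first window of Bbc3, against 3.90% of all windows. These are matches of letters, searched on both strands, and binding was not measured.

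With the inhibitor, the mRNAs of the pro-apoptotic Bcl2l11 and Fas fell, to levels 2.89 and 2.94 times lower, while another BH3-only gene, Bbc3, rose by more than 2-fold and Bid by nearly as much. The receptor Tnfrsf10b rose by 1.85-fold. Anti-apoptotic genes moved less: Bcl2 rose from a very low level, Bcl2l1 rose slightly, and Mcl1 did not pass the test. By the edgeR quasi-likelihood test, with Benjamini-Hochberg adjustment over all genes tested, 8 of the 9 genes had an adjusted p below 0.05, against 80.0% of all genes. Of these 6 were higher in ILN, against 40.2% of all genes, and 2 were lower, against 39.8%. Past a cutoff of 1 in the size of the log2 fold change as well, 1 gene was higher (Bbc3), against 6.48% of all genes, and 2 were lower (Bcl2l11 and Fas), against 10.1%. The TPM of the groups did not overlap for 8 of the 9 genes, against 79.4% of all genes. Passing the test was thus about as common in this group as elsewhere in these libraries. The median log2 fold change of the 9 genes was 0.25, and the median of its size was 0.89, beside medians of 0.00 and 0.39 over all genes tested. These medians were not compared by a test, because the 9 genes were chosen with earlier results of these data known. Lower RNA per cell and fewer cells that express a gene cannot be told apart in bulk RNA.

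**Figure D1:**
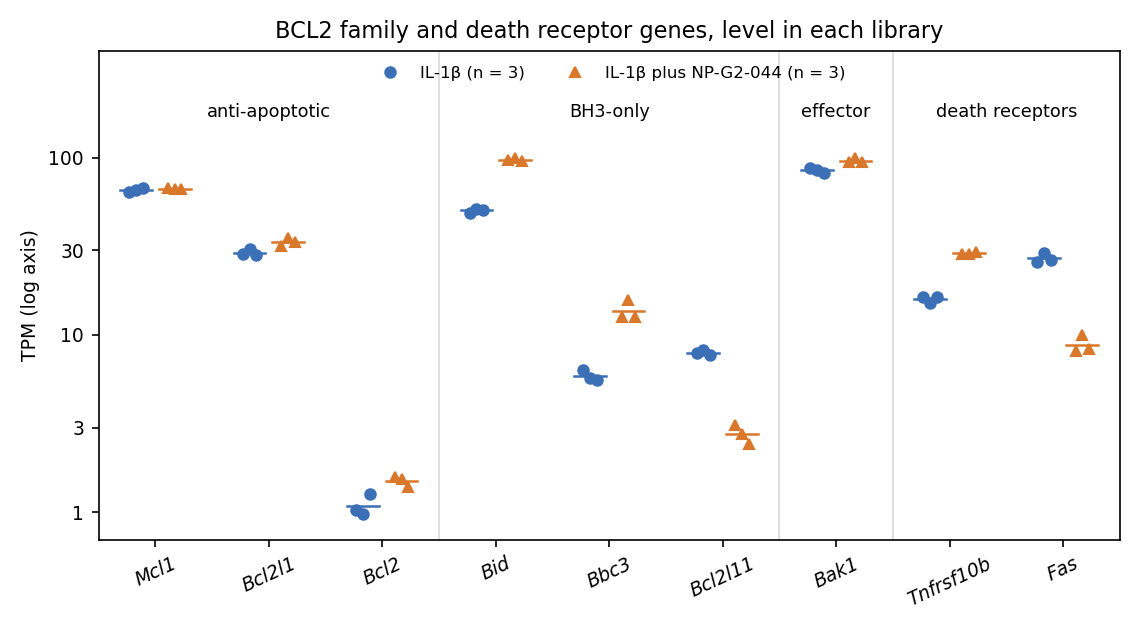
Level of each of the 9 genes in TPM (log axis) in the 3 IL libraries (circles) and the 3 ILN libraries (triangles), grouped by role, with horizontal lines at the group means. Bid, Bbc3 and Tnfrsf10b sit higher and Bcl2l11 and Fas lower in every ILN library, while the values of Mcl1 overlap.

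Bcl2l11 encodes Bim, a BH3-only protein that binds every anti-apoptotic relative and can activate the effectors directly. The gene lies at chr2:128126038-128162547 on the plus strand. It had 371, 380.98 and 375 reads in the IL libraries and 149, 140.98 and 120 in the ILN libraries. Its level was 7.89, 8.2 and 7.65 TPM in IL and 3.09, 2.76 and 2.43 TPM in ILN. All ILN libraries lay far below all IL libraries, and the spread within each group was small beside the gap. The mean fell from 7.91 ± 0.276 to 2.76 ± 0.33 TPM (SD, n = 3 per group), with a log2 fold change of -1.53 (SE 0.0855, Benjamini-Hochberg adjusted p = 1.18e-22 by the edgeR quasi-likelihood test), a level 2.89 times lower. With each library left out in turn the log2 fold change ranged from -1.60 to -1.44. Among the 3 BH3-only genes the share of Bcl2l11 in their summed TPM fell from 12.4% ± 0.337 to 2.43% ± 0.294 (SD, n = 3).

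Bbc3 encodes Puma, a BH3-only protein known as a target of p53 and of stress-induced factors. It lies at chr7:16308393-16318205 on the plus strand. Reads numbered 111, 100 and 94 in IL and 225, 286 and 237 in ILN, which is 6.34, 5.71 and 5.58 TPM against 12.56, 15.63 and 12.67 TPM. The second ILN library was the highest, and the lowest ILN library was still far above the highest IL library. The mean rose from 5.88 ± 0.406 to 13.6 ± 1.74 TPM (SD, n = 3), which is a log2 fold change of 1.22 (SE 0.103, Benjamini-Hochberg adjusted p = 1.51e-15 by the edgeR quasi-likelihood test). The range was 1.12 to 1.29 with each library left out.

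Bid encodes the BH3-only protein that caspase-8 cleaves, and it was the most abundant BH3-only gene of the group. It lies at chr6:120891930-120916853 on the minus strand. Its values were 48.8, 51.29 and 50.7 TPM in IL, from 854, 869 and 877 reads, and 96.4, 99.32 and 95.97 TPM in ILN, from 1758, 1849 and 1788 reads. The libraries of each group lay close together, and the groups were well apart. The log2 fold change was 0.98 (SE 0.0395, Benjamini-Hochberg adjusted p = 7.26e-29 by the edgeR quasi-likelihood test), just under the cutoff of 1, and ranged from 0.97 to 0.99 with each library left out. Bid thus stood just outside the cutoff as a 1.97-fold rise, and Bbc3 just inside it as a 2.33-fold rise. Exons of Bid and of Bcl2l13, on the opposite strand, share 628 bases (17.69% of the exon bases of Bid), and no source used here says whether reads were counted by strand. Bcl2l13 changed by 0.21 on the log2 scale.

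The shift among the BH3-only genes was therefore uneven. The summed level of the 3 BH3-only genes of the group rose from 64.1 ± 1.09 to 113.6 ± 3.58 TPM (SD, n = 3), 1.77-fold. The rise was almost all Bid, whose share went from 78.5% ± 0.957 to 85.6% ± 1.08. It does not hold for BH3-only genes at large. The 6 others listed, outside the group, together had 193.6 to 208.4 TPM in IL and less, 141.3 to 149.8 TPM, in ILN. The ratio of Bbc3 to Bcl2l11 in TPM was 0.804, 0.696 and 0.729 in the IL libraries and 4.06, 5.66 and 5.21 in the ILN libraries. Bcl2l11 was thus the higher of this pair in each IL library and Bbc3 the higher in each ILN library.

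Bak1 encodes Bak, an effector that sits in the outer mitochondrial membrane, and lies at chr17:27019810-27029009 on the minus strand. It had 1622, 1534 and 1498 reads in IL and 1836, 1972 and 1865 in ILN, or 87.24, 85.01 and 81.35 TPM against 94.61, 99.43 and 93.92 TPM. It was the most abundant of the 9 genes in IL. The groups did not overlap, but the shift was small: 84.5 ± 2.97 to 96.0 ± 3.0 TPM (SD, n = 3), which is a log2 fold change of 0.21 (SE 0.0373, Benjamini-Hochberg adjusted p = 1.04e-06 by the edgeR quasi-likelihood test). In ILN the ranges of Bid and Bak1 overlapped, and the ratio of Bid to Bak1 rose from 0.595 ± 0.0327 to 1.01 ± 0.0125 (SD, n = 3). Exons of Ggnbp1, on the opposite strand, share 437 and 177 bases with Bak1 in its 2 annotated entries. Ggnbp1 rose by 0.81 on the log2 scale, from 5.28 to 9.52 TPM.

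Mcl1 encodes a short-lived anti-apoptotic protein and was the most abundant anti-apoptotic gene of the group. It lies at chr3:95658788-95663176 on the plus strand. Its level was 63.66, 65.92 and 67.32 TPM in IL, from 2196, 2207 and 2304 reads, and 66.9, 66.23 and 66.5 TPM in ILN, from 2414, 2441 and 2456 reads. The ILN values lay within the range of the IL values. The log2 fold change was 0.05 (SE 0.0323, Benjamini-Hochberg adjusted p = 0.129 by the edgeR quasi-likelihood test), and 0.04 to 0.07 with each library left out.

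Bcl2l1 encodes Bcl-xL, an anti-apoptotic protein found in many cell types, and a gene-level count does not separate it from the shorter pro-apoptotic product of the same gene. It lies at chr2:152780668-152831728 on the minus strand. There were 706, 738 and 692 reads in IL and 831, 944 and 888 in ILN, or 28.42, 30.36 and 28.06 TPM against 31.73, 35.27 and 33.38 TPM. Every ILN library was above every IL library, by a margin similar to the spread within a group. The mean went from 28.9 ± 1.24 to 33.5 ± 1.77 TPM (SD, n = 3), with a log2 fold change of 0.25 (SE 0.0489, Benjamini-Hochberg adjusted p = 1.14e-05 by the edgeR quasi-likelihood test).

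Bcl2, the founding anti-apoptotic member of the family, was the least abundant of the 9 genes in both groups. It lies at chr1:106538178-106714274 on the minus strand. The IL libraries had 66, 71 and 84 reads and the ILN libraries 123, 122 and 110, which gave 1.03, 0.98 and 1.26 TPM against 1.58, 1.53 and 1.38 TPM. The groups did not overlap, though the highest IL value came near the lowest ILN value. The test on reads gave a log2 fold change of 0.61 (SE 0.126, Benjamini-Hochberg adjusted p = 2e-05 by the edgeR quasi-likelihood test), while limma on log2(TPM + 0.1) gave 0.43 and on log2(TPM + 1) 0.26. The ratio of CPM (reads scaled to library but not to length) to TPM was 3.83, 4.36 and 3.94 in IL and 4.45, 4.51 and 4.52 in ILN. Its log2 shift beyond the median gene was 0.12 for Bcl2, larger in size than for 98.0% of the 10581 genes with a mean of at least 50 reads, and -0.04 to 0.03 for the other 8 genes. The part of this shift in the rise of Bcl2 was not tested. An antisense gene, D630008O14Rik, overlaps 558 exon bases of Bcl2 (6.09%).

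Fas encodes the receptor for Fas ligand, whose death domain recruits FADD and caspase-8. It lies at chr19:34290666-34327772 on the plus strand. It had 340, 367 and 333 reads in IL and 112, 146 and 114 in ILN, or 25.64, 28.84 and 26.53 TPM against 8.09, 10.01 and 8.27 TPM. The second library was the highest in each group, and no ILN library came near an IL library. The mean fell from 27.0 ± 1.65 to 8.79 ± 1.06 TPM (SD, n = 3), with a log2 fold change of -1.55 (SE 0.0916, Benjamini-Hochberg adjusted p = 1.09e-21 by the edgeR quasi-likelihood test), a level 2.94 times lower. The range with each library left out was -1.68 to -1.49. In IL the level of Fas overlapped that of Bcl2l1, and in ILN it was below Bbc3.

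Tnfrsf10b encodes the death receptor for TRAIL, known to be induced by p53 and by the stress factor CHOP. It lies at chr14:69767472-69784411 on the plus strand. Its level was 16.3, 15.21 and 16.28 TPM in IL, from 508.77, 460.65 and 503.87 reads, and 28.6, 28.51 and 29.46 TPM in ILN, from 933, 951.02 and 984 reads. The ILN libraries were tightly grouped and above all IL libraries. The mean rose from 15.9 ± 0.624 to 28.9 ± 0.524 TPM (SD, n = 3), which is a log2 fold change of 0.89 (SE 0.0504, Benjamini-Hochberg adjusted p = 2.1e-22 by the edgeR quasi-likelihood test). Its counts were not whole in 4 of 6 libraries, as were those of Bcl2l11 in 2, so some reads were shared out between features by the authors' estimate. The receptors moved in opposite directions, and the ratio of Fas to Tnfrsf10b fell from 1.70 ± 0.173 to 0.305 ± 0.040 (SD, n = 3).

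**Figure D2:**
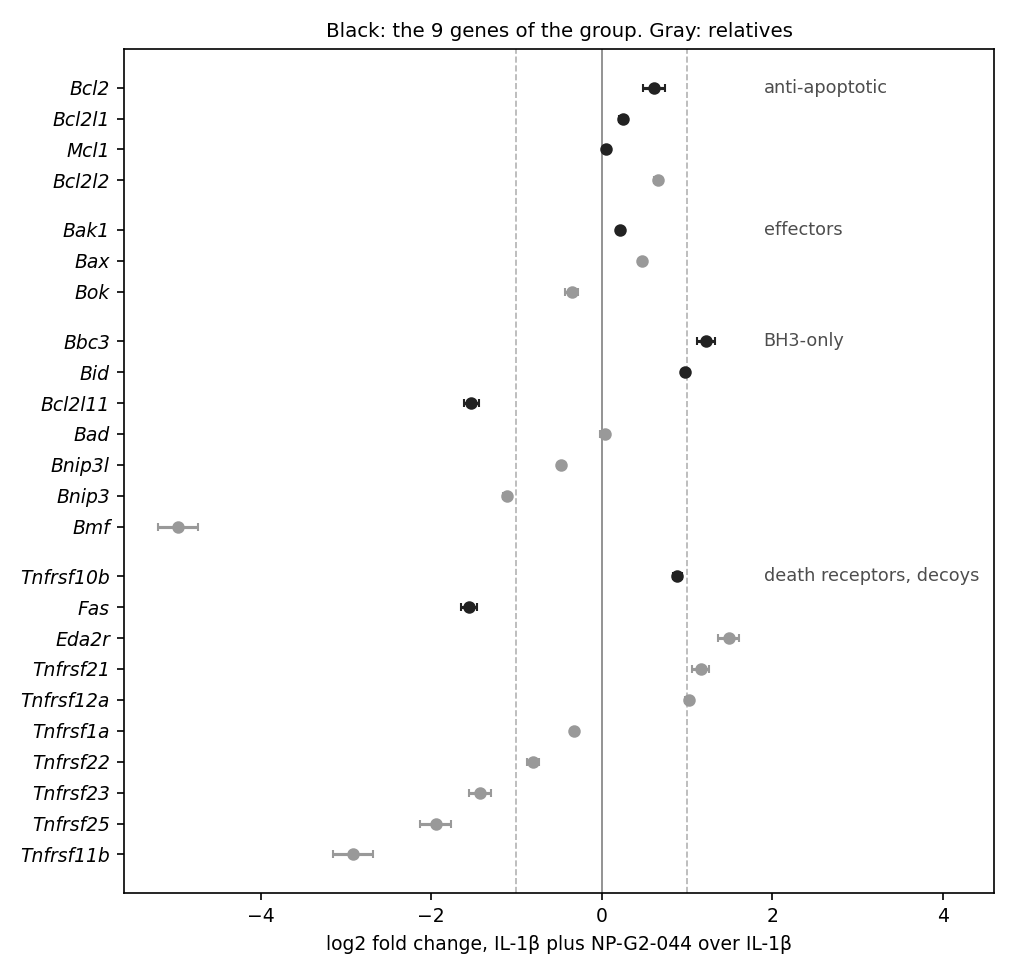
Log2 fold change of ILN over IL with its standard error (horizontal bars) for the 9 genes (black) and their tested relatives (gray), by role, with dashed lines at -1 and 1. Bcl2l11, Fas and Bbc3 lie beyond the dashed lines, Bid at 0.98 lies just inside, and Bmf at -4.97 is the lowest of the genes drawn.

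The levels were then summed by role in each library. The anti-apoptotic genes Bcl2, Bcl2l1 and Mcl1 summed to 95.7 ± 2.24 TPM in IL and 101.5 ± 1.43 TPM in ILN, and the 6 pro-apoptotic genes to 191.5 ± 3.14 and 247.2 ± 7.30 TPM (SD, n = 3). The ratio of anti-apoptotic to pro-apoptotic TPM was 0.484, 0.501 and 0.514 in IL and 0.412, 0.403 and 0.417 in ILN, with means of 0.500 ± 0.0147 and 0.411 ± 0.00716. Each ILN library was below each IL library. This fall is shown for the chosen genes alone, because relatives of the same roles were left out of both sums. Other anti-apoptotic genes had 28.51 to 29.13 TPM in IL and 41.53 to 42.46 TPM in ILN, summed per library. Other effectors had 232.75 to 241.72 and 306.57 to 315.41 TPM, and other BH3-only genes 193.56 to 208.36 and 141.29 to 149.79 TPM. A ratio with these relatives was not computed, so its direction was not tested. The sum gives each mRNA the same weight whatever its protein does, and Bid and Bak1 made up most of the pro-apoptotic sum, so that the ratio mainly followed the rise of Bid. Without Bak1, the gene of highest mean level, it was 0.894 ± 0.0098 in IL and 0.671 ± 0.0107 in ILN. Set against single BH3-only genes the direction split: the ratio of Mcl1 to Bbc3 fell from 11.2 ± 1.05 to 4.94 ± 0.608, while that of Mcl1 to Bcl2l11 rose from 8.30 ± 0.431 to 24.3 ± 2.87 (SD, n = 3). In these sums no p was computed, because the genes were chosen with results of these data known.

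**Figure D3:**
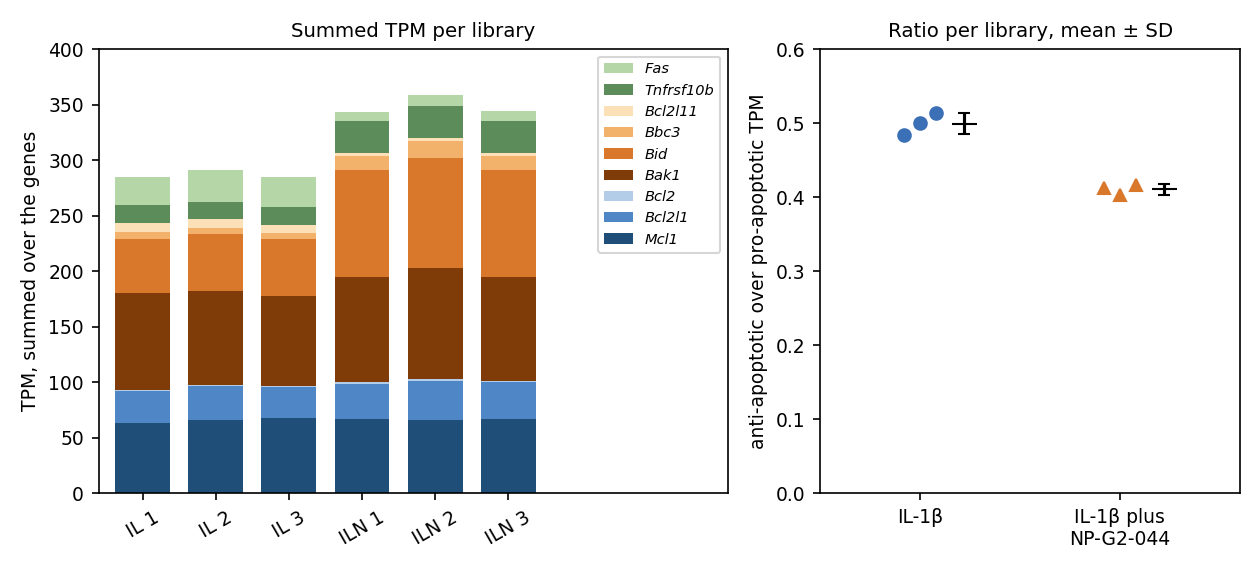
Left, stacked bars of TPM for the 9 genes in each library, with anti-apoptotic genes in blue, the effector and BH3-only genes in browns and oranges, and death receptors in green. Right, the ratio of summed anti-apoptotic to summed pro-apoptotic TPM per library with mean ± SD (n = 3), 0.500 in IL and 0.411 in ILN.

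Relatives of the same roles were compared from lists of the pathway. Counts of higher and lower genes in each list stand beside 40.2% higher and 39.8% lower over all genes tested. Bcl2l2, the anti-apoptotic Bcl-w, rose by 0.66 on the log2 scale, from 28.8 to 41.9 TPM, and was the only other anti-apoptotic gene that could be tested of 2 listed. Bax, the partner effector of Bak, rose from 212.0 to 290.6 TPM (log2 fold change 0.48), and Bok, another effector, fell from 25.3 to 19.5 TPM (-0.35). Bax exceeded Bak1 in every library, with a ratio of 2.51 ± 0.0488 in IL and 3.03 ± 0.0559 in ILN (SD, n = 3). Of the other BH3-only genes 4 of 6 were tested, 3 were lower and 0 were higher. Bmf, a BH3-only gene linked to the cytoskeleton, had 369 reads in the IL libraries together and 12 in the ILN libraries, a ratio of 32.4 (exact 95% interval 18.3 to 63.2, counting error only). Its log2 fold change was -4.97 (SE 0.235, Benjamini-Hochberg adjusted p = 9.68e-26 by the edgeR quasi-likelihood test). Bnip3 and Bnip3l, hypoxia-linked genes that act in mitophagy, fell by 1.11 and 0.47 on the log2 scale. Bad had a log2 fold change of 0.04 (adjusted p = 0.528 by the same edgeR test). The names of Bad and Bnip3l complete the list and were added after their values were seen. Annotated genes overlap exons of Bcl2l2 and Bax on the same strand (594 and 192 bases) and of Bnip3 on the opposite strand (504 bases). Of the divergent relatives, 3 were tested, with 1 higher (Bcl2l13) and 1 lower.

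Among other receptors, decoys and ligands of the TNF superfamily, 8 of 13 were tested, 3 of them higher and 5 lower, all with an adjusted p below 0.05. Eda2r rose by 1.49 on the log2 scale, from 1.31 to 3.82 TPM, Tnfrsf21, the death receptor DR6, by 1.16, from 2.78 to 6.09 TPM, and Tnfrsf12a, the TWEAK receptor, by 1.02, from 129.9 to 258.9 TPM. Tnfrsf12a was the most abundant of the tested receptors in ILN. Tnfrsf11b, which encodes the decoy osteoprotegerin, fell by 2.92, with 204 reads in IL and 28 in ILN, and Tnfrsf25, the death receptor DR3, and the decoy Tnfrsf23 fell by 1.95 and 1.43. Tnfrsf1a, the main TNF receptor, and the decoy Tnfrsf22, both named after their values were seen, fell by 0.32 and 0.80. Genes for the ligands were near the limit of detection: Tnf had 0 reads in every library, and Fasl and Tnfsf10, the ligands of Fas and Tnfrsf10b, averaged at most 0.053 TPM in either group.

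Downstream of the receptors, 9 of 10 genes of the death receptor complex and necroptosis were tested, 2 higher and 4 lower. Casp8 fell by 0.45 on the log2 scale, from 35.1 to 24.9 TPM, and Traf1, an NF-κB target that binds TNF receptors, by 1.63, whereas Cflar, the inhibitor of caspase-8, had a log2 fold change of 0.03 (Benjamini-Hochberg adjusted p = 0.598 by the edgeR quasi-likelihood test). Of 14 genes for the apoptosome, executioner caspases and their substrates, 5 were higher and 7 lower. Casp6 fell by 1.13 on the log2 scale and Apaf1, the scaffold of the apoptosome, by 0.31. In the group of inhibitor of apoptosis proteins 4 of the 5 tested were lower and 1 was higher. Birc5, which encodes survivin and is also a cell division gene, fell by 1.38, from 343.4 to 129.0 TPM. Of 10 tested genes that set the stability or activity of BCL2 proteins, 3 were higher and 6 lower, none beyond the cutoff, and Bclaf1 fell by 0.46.

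Transcription factors known to act on these genes were read from a list of 16 factors. Of 14 tested, 8 were higher and 4 lower. Ddit3, which encodes CHOP, rose from 65.4 to 1226 TPM (log2 fold change 4.05, Benjamini-Hochberg adjusted p = 4.09e-57 by the edgeR quasi-likelihood test), Atf3 from 7.97 to 303.2 TPM (5.28) and Atf4 from 176.3 to 840.5 TPM (2.30). Nfkb1, which encodes the NF-κB subunit p105/p50, fell from 64.9 to 30.01 TPM (-1.08). Trp53, which encodes p53, averaged 52.5 and 49.0 TPM (log2 fold change -0.07, adjusted p = 0.179 by the same edgeR test). Among 11 core p53 targets 8 were higher and 1 lower, where 40.2% of all genes were higher and 39.8% lower. The largest rises on the log2 scale were 3.30 for Plk2, 3.04 for Sesn2 and 2.49 for Perp. Perp had only 8 reads in IL and 49 in ILN. Named after their values were seen, Mdm2 rose by 0.70, Ccng1 fell by 0.08, and Phlda3 and Trp53inp1 did not pass the test. Factors whose motifs were searched in the promoters were named as well, after their values were seen. Foxo1 and Foxo3 went in opposite directions, by -0.88 and 0.57 on the log2 scale. Jun, a subunit of AP-1, rose from 7.30 to 21.9 TPM (1.62). Rela, another NF-κB subunit, rose from 99.9 to 131.8 TPM (0.43) where Nfkb1 fell. Levels of a factor's mRNA say nothing about its activity, which was not measured.

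Over all these lists, 92 of 98 genes were listed and 81 tested, of which 33 were higher, 36 lower and 12 did not pass, where 40.2% of all genes were higher and 39.8% lower. Past the cutoff of 1 as well, 12 were higher and 9 lower, where 6.48% and 10.1% of all genes were. Of the 12 higher, 4 were transcription factors, 5 were p53 targets and 3 were in the TNF superfamily list. Of the 9 lower, 1 was a transcription factor and 0 were p53 targets. The median log2 fold change of the 81 genes was -0.06, beside 0.25 for the 9 genes of the group. Both sets were chosen with earlier results of these data known, and their difference was not tested.

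**Figure D4:**
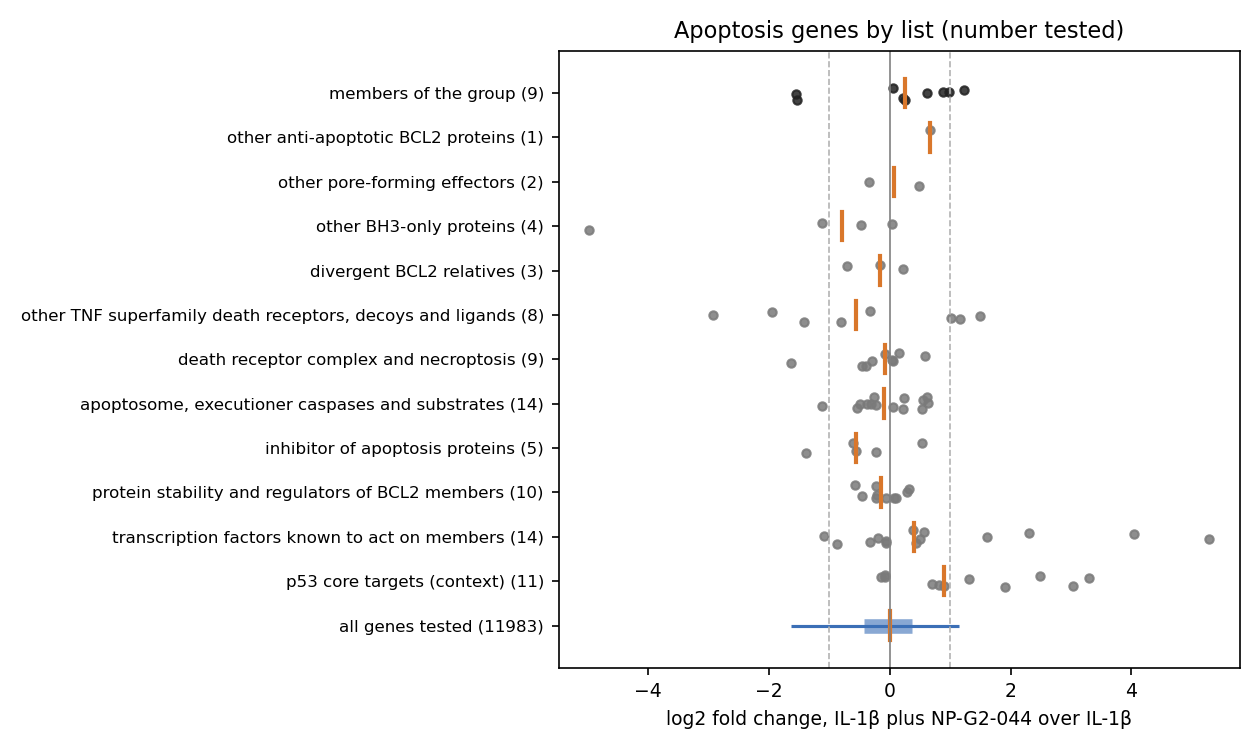
Log2 fold change of ILN over IL for each tested gene (points, spread vertically for visibility), by list, with the median of each list (orange line). The bottom row gives all 11983 genes tested, with a bar from the 25th to the 75th percentile (-0.43 to 0.36) and a line from the 5th to the 95th (-1.64 to 1.15), and factors and p53 targets hold the highest points.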

How the data were processed

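Libraries were made from ATDC5 RNA with a TruSeq RNA kit, and BGI carried out extraction, sequencing and quantification. The submitters' processing notes name cutadapt, HISAT2 2.0, StringTie and the build mm10. No source used here gives the annotation or the strand setting. The authors quantified every library and deposited, gene by gene, an estimated count without normalization, a TPM and an FPKM. FPKM values and the authors' means per group entered no result. The deposited counts, 10.17% to 11.06% of them not whole in a library, were rounded.

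Counts were filtered with filterByExpr (minimum count 10), normalized with TMM and compared in edgeR 4.0.16 (quasi-likelihood test, R 4.3.3), 3 ILN libraries against 3 IL libraries, without covariates, with Benjamini-Hochberg adjustment over 11983 genes. A log2 fold change is ILN over IL from this fit, a positive value being higher in ILN. Its standard error was taken as its size divided by the root of F. The TPM are the authors' values, with SD over libraries. Replicates of a group differed by more than sampling noise (1.54 to 2.40 times), yet the biological coefficient of variation was only 2.33%. The very small p-values rest on this narrow spread. How far the cultures were independent is not stated, so these p-values may not carry over to separate cultures. The edgeR steps were also run on simulated counts, with far fewer genes changed than were called here. That run does not show how they behave with this many changes.

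Alternatives used DESeq2 1.42.0, limma 3.58.1 on counts (voom) and on log2(TPM + 1) and log2(TPM + 0.1), other scalings and filters, a block for the replicate number, omission of each library, and the null of a fold change of at most 2 (glmTreat).

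The 10 genes and all lists were chosen with earlier results of these data known. Every gene of the group was named. From each other list the genes past both cutoffs were named, at most 3 higher and 3 lower by size, or the gene of smallest adjusted p where none passed both. Bax, Bok, Casp8, Cflar, Apaf1, Ddit3 and Trp53 were always named, and the result of 1 further gene of that rule is not reported here. Coordinates are from GENCODE M21 (mm10), promoters from RefSeq.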

Additional observations from a re-analysis of the deposited data

How the results depend on the processing

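Over 143 alternative values for the 9 genes, 138 kept their direction and side of the threshold and 0 reversed. The other 5 were Bcl2, Bcl2l1, Bid, Bak1 and Tnfrsf10b in the test against a fold change of 2, where 3 genes of the group were called, 1 of them higher, with an adjusted p of 0.0426 for Bbc3 (edgeR's glmTreat with Benjamini-Hochberg adjustment). Under that test 1473 of all genes were called, 564 higher and 909 lower, and of the other apoptosis lists 17, 9 higher and 8 lower. Past both cutoffs, 516 genes were higher and 804 lower with limma on log2(TPM + 1), and 484 higher and 680 lower when 10 CPM were required in 3 libraries, which also dropped Bcl2. With that filter 7 genes of the other lists were higher and 5 lower. The ratio of anti-apoptotic to pro-apoptotic genes was 0.810 in IL and 0.668 in ILN from CPM, which are not per length, 0.894 and 0.671 without Bak1, and, as an alternative chosen after seeing the data, 0.644 and 0.484 with BCL2 family genes alone. It was lower in ILN each time, but every version kept Bid, whose rise the ratio mainly followed. None left out Bid or added relatives such as Bax and Bcl2l2. These versions therefore do not show whether the ratio falls without Bid or with such relatives added. With the replicate number as a replicate block, 8 genes of the group had an adjusted p below 0.05, as without it, and Mcl1 had 0.168 (edgeR's quasi-likelihood test). The pairing changed no call for these genes, and samples with the same number did not deviate together (correlations of -0.0934, -0.0236 and 0.0259), nor did each correlate best with its own number. Over all genes 9498 were called with the block, against 9584.

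Leaving out any library left 8 genes of the group called, and 9325 to 9448 of all genes were called in these fits. Genes with few reads, such as Bcl2, Bmf and Perp, are the least precise. Sharing of reads between overlapping genes and between isoforms could not be separated in gene-level values.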
